A study of Mus musculus with 12 samples.

Results

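Cortices of Dnmt1 conditional knockout (CKO) mice and of Dnmt3a CKO mice were compared with each other by RNA-seq, a direct contrast of the 2 knockouts rather than of each with its own controls. The members are the 6 CKO libraries of a series of 12 cortex libraries, 3 per knockout, chosen by genotype label and not by any measured value. All mice were C57BL/6 at postnatal day 16. The Dnmt1 CKO mice were Olig1cre/+;Dnmt1flox/flox and the Dnmt3a CKO mice Olig1cre/+;Dnmt3aflox/flox, so both knockouts carried 1 cre allele at the Olig1 locus. Each line had 3 littermate controls, Olig1+/+;Dnmt1flox/flox or Olig1+/+;Dnmt3aflox/flox, which carried the floxed alleles but no cre. These 6 control libraries are used here to show how far the lines differ without a knockout.

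DNMT1 is the maintenance methyltransferase, which copies CpG methylation onto the new strand after DNA replication, and DNMT3A is a de novo methyltransferase, which methylates sites without needing a methylated template. Olig1 is a transcription factor of the oligodendrocyte lineage. Cre expressed from its locus therefore acts mainly in oligodendrocyte progenitors and their descendants, the cells that make the myelin sheaths of the central nervous system. The whole cortex also holds neurons, astrocytes, microglia and vessels, in most of which the floxed alleles are expected to stay intact, and in such bulk tissue fewer cells of a type and less RNA per cell cannot be told apart.

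Expression was given as FPKM, which scales the fragments of a gene by its transcript length and by the mapped fragments of the library. The deposited FPKM values of a library summed to between 342274 and 417856, and the relative depth read from the steps between low values ran from 0.856 to 1 over the 12 libraries. The read number behind a value is unknown, so no counting interval is given. Differences are Dnmt1 CKO minus Dnmt3a CKO in mean log2(FPKM + 0.1), which understates the change of low genes. They were tested with limma over all 14075 gene symbols whose mean reached 0.5 FPKM, and a gene is called when its Benjamini-Hochberg adjusted p is under 0.1, a false discovery rate (FDR) of 10%.

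The targeted genes and the cre locus were examined first. Dnmt3a (chr12:3806007-3914443, GRCm38) measured 13.6, 14.2 and 15.4 FPKM in the 3 Dnmt3a CKO libraries and 29.2, 32.6 and 30.9 FPKM in the Dnmt1 CKO libraries. The groups did not overlap, and the log2 difference was 1.10 (standard error 0.06, limma adjusted p = 0.00077). Dnmt1 (chr9:20907209-20959888) measured 7.26, 9.11 and 9.09 FPKM in the Dnmt1 CKO libraries and 9.44, 9.74 and 9.57 FPKM in the Dnmt3a CKO libraries. All 3 Dnmt1 CKO values were the lower ones, but the log2 difference of -0.18 (standard error 0.09) was not called (limma adjusted p = 0.4). Total transcript level is not a measure of the deleted exons. Olig1 (chr16:91269772-91271933) measured 20.6, 21.9 and 18.4 FPKM in Dnmt1 CKO and 30.6, 38.8 and 32.2 FPKM in Dnmt3a CKO, against 42.0 to 50.9 FPKM in the 6 controls. Both knockouts lay below every control, and Dnmt1 CKO lay below Dnmt3a CKO by 0.73 on the log2 scale (adjusted p = 0.025 from limma). For each of these genes the exact two-sided permutation test of the 3 against 3 values gave p = 0.1, the smallest that this design allows.

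**Figure D1:**
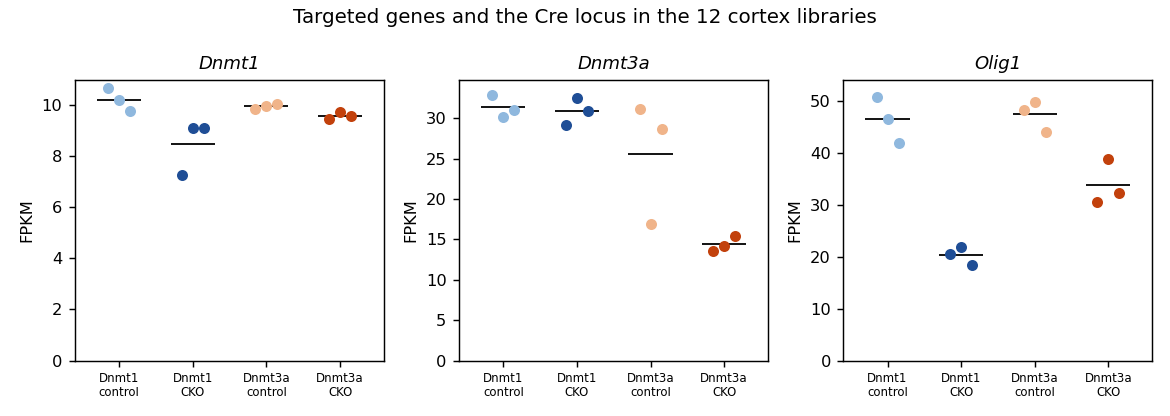
FPKM of Dnmt1, Dnmt3a and Olig1 in each of the 12 cortex libraries, by group (points are libraries, horizontal lines group means, vertical axes start at 0). Dnmt3a was at 13.6 to 15.4 FPKM in the Dnmt3a CKO libraries, 1 Dnmt3a control library was at 16.9 FPKM, and Olig1 was lower in both knockouts than in any control.

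Some libraries stood apart. In the library labelled Dnmt3a control replicate 2, Dnmt3a measured 16.9 FPKM, close to the Dnmt3a CKO libraries and far from the 31.1 and 28.7 FPKM of the other two Dnmt3a controls, while its Olig1 level of 49.8 FPKM was that of a control. It does not enter the contrast of the knockouts, and the main results that use the controls are given with and without it. By the Y-linked gene Ddx3y, 1 library of Dnmt3a CKO, 1 of Dnmt1 control and 1 of Dnmt3a control came from female mice, in each case replicate 3, whereas all 3 Dnmt1 CKO libraries came from males. Ttr, a choroid plexus gene, measured 287, 408 and 1.94 FPKM in the Dnmt3a CKO libraries and 241, 218 and 80.7 FPKM in the Dnmt1 CKO libraries, so its level varied widely within groups.

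Between the knockouts, 704 genes were called, 5.0% of the genes tested. Of these, 501 were lower in Dnmt1 CKO (3.56% of the genes tested) and 203 were higher (1.44%). At an FDR of 5% the number was 450. Most differences were modest: 221 of the called genes differed by under 0.3 on the log2 scale and 102 by over 1, and of the latter 80 were lower and 22 higher in Dnmt1 CKO. The CKO values did not overlap in any of the 704 called genes, nor in 22.9% of all genes tested. Among the male libraries alone, with 2 Dnmt3a CKO libraries, 722 genes were called (210 higher and 512 lower). The count fell to 333, 464 and 346 without Dnmt1 CKO replicate 1, 2 or 3, to 403 and 424 without Dnmt3a CKO replicate 1 or 2, and was 722 without Dnmt3a CKO replicate 3, the female library. In all, 270 genes (53 higher, 217 lower) were called in each of the 6 fits with 1 library left out.

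**Figure D2:**
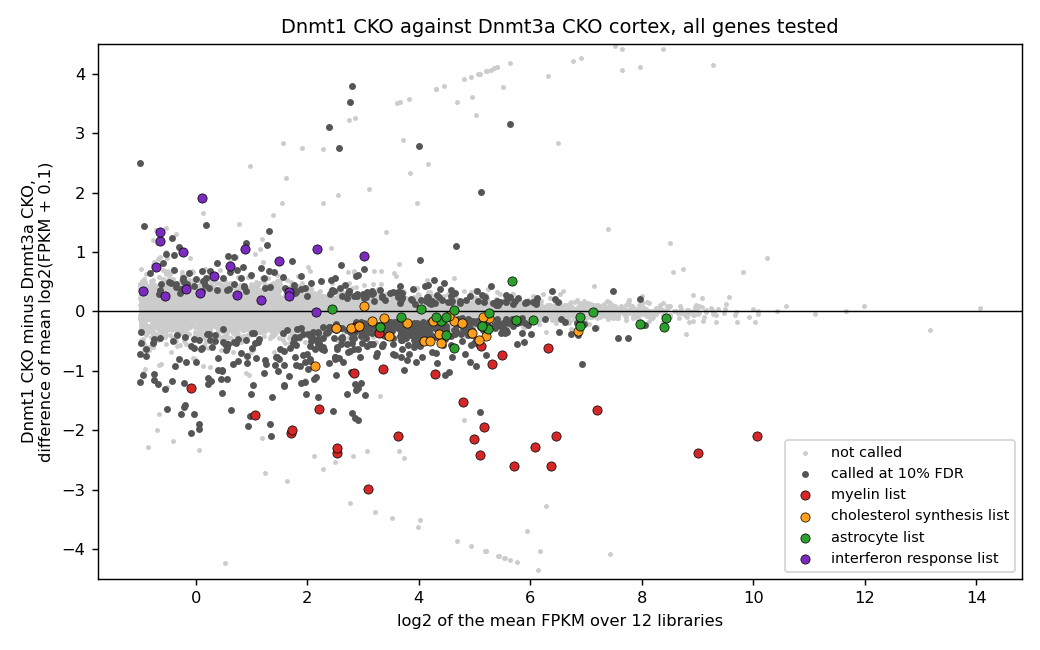
Difference between the knockouts (Dnmt1 CKO minus Dnmt3a CKO, in mean log2(FPKM + 0.1)) against log2 of the mean FPKM for each gene tested, with called genes in dark grey and 4 gene lists in colour; 41 genes lie outside the vertical axis. The myelin list sits below 0 across the whole range of levels, and 19 of the 20 interferon response genes sit above 0.

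Myelin genes had the lowest median difference of all lists. Of 29 myelin genes tested, 28 were lower in Dnmt1 CKO and called (96.6%, beside 3.56% of all genes tested), and none was higher. The remaining gene, Enpp2, had a log2 difference of -0.62. The median log2 difference over the list was -1.94, where that over all genes tested lay within 0.01 of 0. Summed over the list, the level was 806, 906 and 859 FPKM in the Dnmt1 CKO libraries and 3174, 3615 and 3163 FPKM in the Dnmt3a CKO libraries. The list's most abundant gene was Mbp, which encodes myelin basic protein and carried 313, 370 and 350 FPKM in Dnmt1 CKO. The same gene measured 1417, 1609 and 1417 FPKM in Dnmt3a CKO. With any 1 library left out, 26 or 27 of the list were called.

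Among the structural proteins of myelin, Mobp, a basic protein of the sheath, measured 16.5, 19.3 and 20.02 FPKM in Dnmt1 CKO and 107, 124 and 108 FPKM in Dnmt3a CKO. Its log2 difference was -2.60 (standard error 0.09, limma adjusted p = 0.00021). Mag, an adhesion molecule of the membrane facing the axon, measured 16.3, 21.5 and 19 FPKM against 86.3, 101 and 89.1 FPKM. Mal, a proteolipid of membrane sorting, measured 11.5, 11.7 and 13 FPKM against 72.0, 80.6 and 69.0 FPKM. In all of these the Dnmt1 CKO libraries formed a narrow group far below the others. The decrease was deepest for Opalin, an oligodendrocyte membrane protein, at 1.37, 1.81 and 1.26 FPKM against 12.9, 12.6 and 11.5 FPKM (log2 difference -2.99). Mog, a further myelin protein, had a log2 difference of -2.41. The connexin gene Gjb1, whose product forms gap junctions of oligodendrocytes, differed by -1.74. Gsn, which encodes the actin-severing protein gelsolin, measured 13.1, 14.6 and 12.6 FPKM in Dnmt1 CKO and 41.6, 48.7 and 41.0 FPKM in Dnmt3a CKO, a log2 difference of -1.69.

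Other lists of the lineage had medians closer to 0. Newly formed oligodendrocyte markers had 13 of 19 genes lower and called (68.4%, beside 3.56% of all genes tested) and none higher. Their median log2 difference was -0.56. They included Casr, the calcium-sensing receptor, at 0.292, 0.302 and 0.240 FPKM in Dnmt1 CKO and 0.960, 1.26 and 0.952 FPKM in Dnmt3a CKO, and Sirt2, a deacetylase of oligodendrocytes, with a log2 difference of -0.89. Of 22 transcription factors of the lineage, 6 were lower and called (27.3%, beside 3.56% of all genes): Nkx6-2, Myrf, Sox10, Nkx2-2, Olig1 and Sox8. Myrf, which drives myelin gene transcription, measured 2.85, 3.34 and 3.25 FPKM against 8.37, 8.95 and 7.83 FPKM, a log2 difference of -1.39. Sox10, which acts throughout the lineage, measured 7.90, 8.66 and 7.41 FPKM against 17.3, 16.9 and 13.5 FPKM, a log2 difference of -0.98. Neither pair of groups overlapped.

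The median log2 difference of the 18 progenitor markers tested was -0.01, with 9 higher and 9 lower. Of the 18, 3 were called, all lower (Neu4, Vcan and Gpr37l1). This was 16.7% of the list, where 3.56% of all genes tested were called lower. With 1 library left out, 1 or 2 of them were called. Against the own controls Neu4 differed by -0.65 in Dnmt1 CKO and -0.21 in Dnmt3a CKO. For Vcan these differences were 0.06 and 0.25, and for Gpr37l1 -0.08 and 0.16. Neu4 is also on the list of newly formed oligodendrocyte markers and is counted in both. Pdgfra, the receptor that marks oligodendrocyte progenitors, measured 11.4, 11.6 and 11.4 FPKM in Dnmt1 CKO and 12.6, 13.3 and 12.2 FPKM in Dnmt3a CKO. Its values did not overlap, yet the log2 difference of -0.15 was not called (limma adjusted p = 0.13). All 3 Dnmt1 CKO values of Pdgfra lay below the other 9 libraries. Against the own controls it differed by -0.30 in Dnmt1 CKO, which was called (limma adjusted p = 0.046). In Dnmt3a CKO that difference was -0.05, without a call. Cspg5, the most abundant gene of the progenitor list, measured 58.2, 62.4 and 55.7 FPKM against 60.1, 60.9 and 59.9 FPKM, with a log2 difference of -0.04. The lists were not tested against each other.

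Among genes of cholesterol synthesis and uptake, on which myelin membrane depends, every call was also on the lower side. Of 23 tested, 12 were lower and called (52.2%, beside 3.56% of all genes), and none was higher and called. The median log2 difference was -0.27. The number depended on single libraries, since 4 to 10 of the list were called with 1 library left out. Hmgcs1, an early enzyme of the pathway and its most abundant member, measured 97.3, 99.9 and 85.1 FPKM against 116, 115 and 123 FPKM, a log2 difference of -0.33 (limma adjusted p = 0.073). Its call was lost without Dnmt1 CKO replicate 1 or any 1 of the Dnmt3a CKO libraries (limma adjusted p = 0.151 to 0.181).

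**Figure D3:**
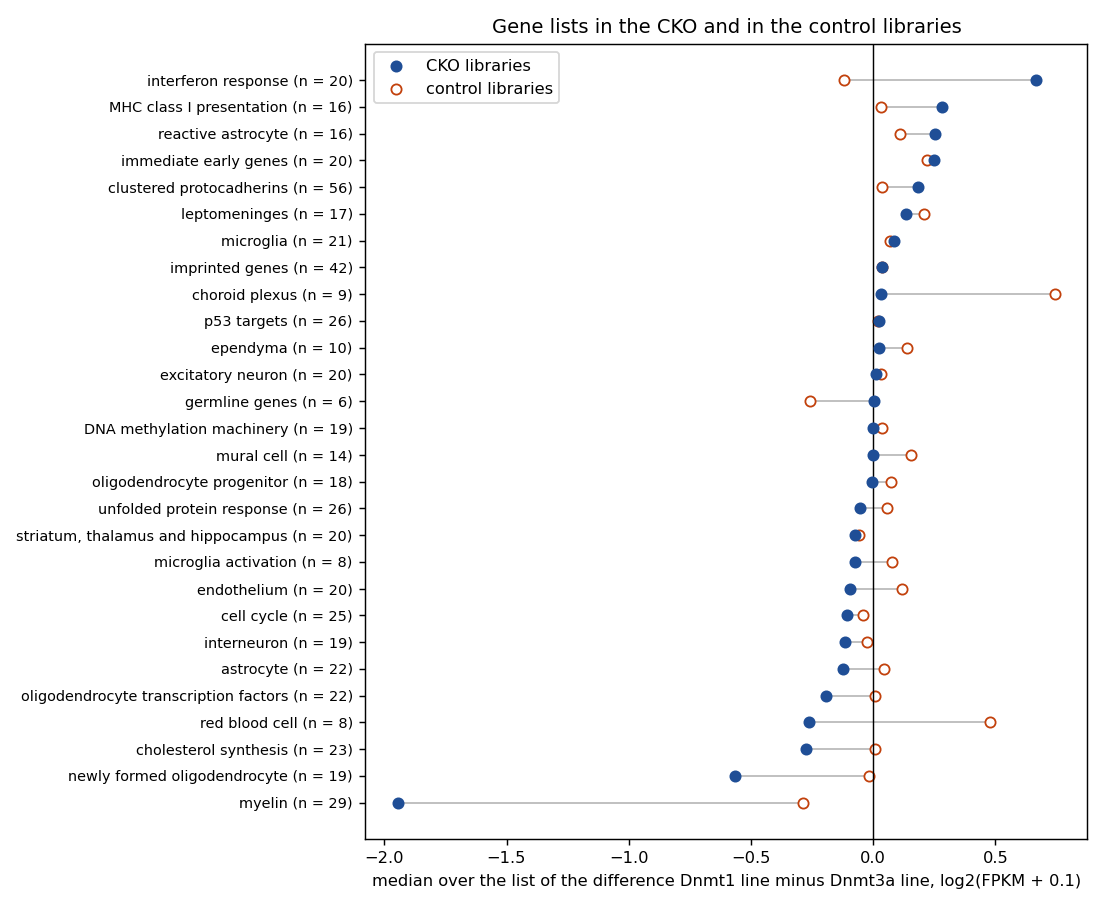
Median log2 difference between the Dnmt1 and the Dnmt3a line for each gene list, in the CKO libraries (filled points) and in the control libraries (open points), with the number of genes tested. Myelin had the lowest CKO median at -1.94 with -0.29 in the controls, and the interferon response the highest of the lists shown, which leave out the Y chromosome genes, at 0.67 with -0.12 in the controls.

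Of 22 homeostatic astrocyte genes, 7 were lower in Dnmt1 CKO and called (Kcnj10, Fgfr3, Ntsr2, Slc1a2, S100b and Aldoc among them) and 1 was higher, Gfap. These calls were 36.4% of the list, beside 5.0% of all genes tested. Against the own controls the list's median log2 difference was -0.06 in Dnmt1 CKO and 0.13 in Dnmt3a CKO. Kcnj10, an inwardly rectifying potassium channel of astrocytes and oligodendrocytes, measured 17.4, 19.4 and 17.2 FPKM in Dnmt1 CKO and 26.4, 27.8 and 28.4 FPKM in Dnmt3a CKO, with a log2 difference of -0.61 (limma adjusted p = 0.0051). The glutamate transporter gene Slc1a2 differed by -0.26, and Glul, the glutamine synthetase gene and the list's most abundant member, by -0.11 without a call. With 1 library left out, 2 to 6 of the list were lower and called, and Gfap was called in 2 of the 6 fits.

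Of 16 reactive astrocyte genes, 4 were higher and called (25.0%, beside 1.44% of all genes), Gfap, Serpina3n, C4b and Lcn2. None was lower and called. Gfap, the intermediate filament of astrocytes, measured 64.6, 70.1 and 64.9 FPKM in Dnmt1 CKO and 46.8, 53.4 and 40.2 FPKM in Dnmt3a CKO. Its log2 difference of 0.52 was called (limma adjusted p = 0.067), but the call was lost without any 1 of the Dnmt1 CKO libraries or without Dnmt3a CKO replicate 1 (limma adjusted p = 0.181 to 0.191). In the controls Gfap was also higher in the Dnmt1 line, by 0.20, or by 0.16 without Dnmt3a control replicate 2. C4b, a complement component, measured 4.42, 4.60 and 4.31 FPKM against 1.74, 2.04 and 1.32 FPKM. Every Dnmt1 CKO value was above all other 9 libraries, and the log2 difference was 1.36 (limma adjusted p = 0.01). C4b shares 34.6% of its 50-base words with its paralog C4a in the annotated transcripts, so the 2 genes may not be fully separated. Lcn2, a secreted iron-binding protein, measured 1.17, 0.717 and 1.14 FPKM against 0.273, 0.319 and 0.323 FPKM. It averaged 0.361 FPKM over the other 9 libraries and was tested only because of its level in Dnmt1 CKO. With 1 library left out, 2 to 4 of the list were called.

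**Figure D4:**
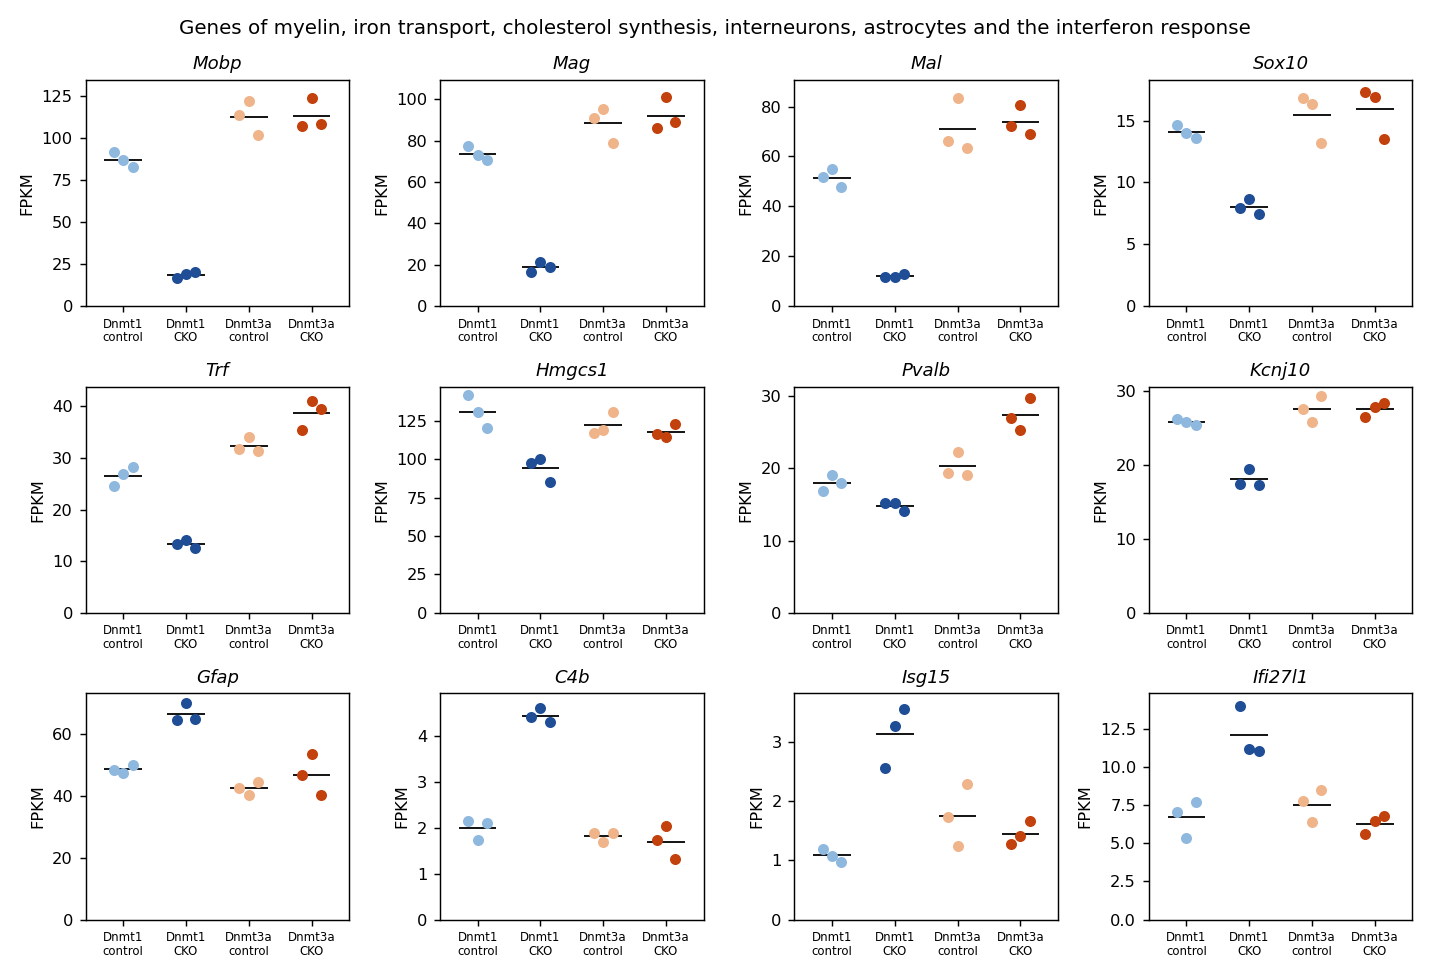
FPKM of 12 named genes in each library, by group (points are libraries, horizontal lines group means, vertical axes start at 0). Mobp, Mag, Mal, Sox10, Trf, Hmgcs1 and Kcnj10 were lowest in the 3 Dnmt1 CKO libraries, Gfap, C4b, Isg15 and Ifi27l1 were highest there, and Pvalb was highest in the 3 Dnmt3a CKO libraries.

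Interferon response genes had the highest median difference of the lists that were not sex-linked. Of 20 tested, 11 were higher in Dnmt1 CKO and called (55.0%, beside 1.44% of all genes), and none was lower and called. The median log2 difference was 0.67. Of the 20, 3 reached the 0.5 FPKM needed for testing only through 1 CKO group, and 2 of these were among the 11 called. The count and the median include these 3 genes, whose entry depended on the level in that group. The interaction with the control difference, described further on, was called for 4 of the 20 list members. Their summed level was 60.8, 58.7 and 63.6 FPKM in Dnmt1 CKO and 35.6, 37.9 and 38.2 FPKM in Dnmt3a CKO, and the 6 controls lay between 34.2 and 46.7 FPKM. With 1 library left out, 9 to 11 were called. Ifi27l1, the most abundant of them, measured 14.0, 11.2 and 11.1 FPKM against 5.61, 6.44 and 6.79 FPKM, a log2 difference of 0.93 (limma adjusted p = 0.014). Ifi27l2a, a related interferon-induced gene, measured 1.66, 2.12 and 2.43 FPKM against 0.550, 0.573 and 0.332 FPKM, but 1 Dnmt3a control library reached 1.77 FPKM.

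Isg15, a ubiquitin-like protein, measured 2.56, 3.26 and 3.56 FPKM in Dnmt1 CKO and 1.27, 1.40 and 1.67 FPKM in Dnmt3a CKO (log2 difference 1.05, limma adjusted p = 0.025). Irf7, the transcription factor that amplifies type I interferon production, measured 1.15, 1.08 and 1.20 FPKM against 0.352, 0.434 and 0.579 FPKM. Oasl2, an oligoadenylate synthetase-like protein, differed by 1.34 and Rtp4 by 0.99. These levels are low, and these 4 genes were named after their values were seen. Irf7 and Oasl2 averaged 0.469 and 0.433 FPKM over the other 9 libraries, so they reached the 0.5 FPKM needed for testing only through Dnmt1 CKO, and with a minimum of 1 FPKM 7 genes of the list were called. The 21 microglia markers, from cells that can respond to interferon, had no call and a median log2 difference of 0.09. The 16 genes of MHC class I presentation, many of them interferon targets, had no call either and a median of 0.28, with 15 of 16 higher in Dnmt1 CKO.

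Upstream sequences of 3 of the called interferon genes are shown because such genes share a known promoter element, the interferon-stimulated response element. The motif, GAAA followed after 2 bases of any kind by another GAAA, was searched on both strands in the 250 bases before the start of each gene in the RefSeq promoters (GRCm38.p6), and 3.04% of 27025 promoters held it. Promoters were found for 15 of the 20 list members, fewer than 80%, so a share over the list is void. Of these 15, 6 held the motif and 9 did not, and the 3 shown were picked from the 6. Matches are in capitals, and overlapping matches run together.
Isg15, chr4:156200819-156201068, minus strand: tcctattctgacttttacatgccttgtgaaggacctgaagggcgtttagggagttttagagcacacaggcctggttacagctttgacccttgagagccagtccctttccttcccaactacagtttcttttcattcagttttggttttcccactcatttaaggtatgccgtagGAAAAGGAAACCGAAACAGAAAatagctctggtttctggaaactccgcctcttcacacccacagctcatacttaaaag
Ifit3, chr19:34583279-34583528, plus strand: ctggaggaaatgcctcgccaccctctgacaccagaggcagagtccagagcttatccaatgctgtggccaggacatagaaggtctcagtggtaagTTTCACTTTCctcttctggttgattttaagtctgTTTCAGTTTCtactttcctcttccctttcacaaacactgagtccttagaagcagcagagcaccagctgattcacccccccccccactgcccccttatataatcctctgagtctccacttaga
Trim30a, chr7:104465194-104465443, minus strand: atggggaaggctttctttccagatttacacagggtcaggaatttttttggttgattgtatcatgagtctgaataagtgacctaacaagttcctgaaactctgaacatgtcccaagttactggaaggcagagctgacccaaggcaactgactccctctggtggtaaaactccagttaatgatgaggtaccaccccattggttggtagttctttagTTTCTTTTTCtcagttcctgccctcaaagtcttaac
Isg15 held 3 overlapping matches, the first beginning 78 bases before the start, Ifit3 held 2 and Trim30a held 1. Ifit3, an RNA-binding antiviral protein, measured 2.11, 2.12 and 2.65 FPKM in Dnmt1 CKO and 1.36, 1.36 and 1.19 FPKM in Dnmt3a CKO, and shares 51.2% of its 50-base words with Ifit3b. Trim30a, of a family of ubiquitin ligases, had a log2 difference of 0.74 (limma adjusted p = 0.022). A match of letters is not evidence that a factor binds there.

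Apart from a microRNA row and the Y-linked Uba1y, both described further on, the largest increases were of genes on none of the lists. These transcripts varied little among the 9 other libraries and were far higher in all 3 Dnmt1 CKO libraries. Gm11127 (chr17:36055816-36058371), annotated as a protein-coding gene, measured 23.7, 25.0 and 20.8 FPKM in Dnmt1 CKO and 1.70, 1.24 and 1.88 FPKM in Dnmt3a CKO, a log2 difference of 3.79 (standard error 0.16, limma adjusted p = 0.00032). The 6 controls lay between 1.49 and 1.81 FPKM. Gm4262 (chr16:11008898-11015186), a long noncoding RNA, measured 21.4, 23.8 and 20.1 FPKM against 1.54, 1.66 and 2.26 FPKM. Psg23 (chr7:18606343-18616501), a member of the pregnancy-specific glycoproteins that are typical of placenta, measured 15.6, 16.8 and 14.7 FPKM against 1.92, 1.59 and 1.73 FPKM. The most abundant of this kind, the transcribed pseudogene 4933409K07Rik, measured 148, 159 and 138 FPKM against 16.3, 14.3 and 19.1 FPKM.

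A further 3 transcripts of this kind were Gm19757 (chr6:105481266-105492668), A430078G23Rik (chr8:3353415-3390299) and Gm10845 (chr14:79860521-79869176), with log2 differences of 2.79, 2.74 and 2.0. The spread among the Dnmt1 CKO libraries was small, as in Gm19757 with 44.7, 46.4 and 44.2 FPKM. Reads of these genes can come in part from copies, since 63.8% of the 50-base words of Gm11127, 37.2% of those of Psg23 and 20.3% of those of Gm10845 also occur in other annotated genes, against 8.72% for Gm4262, 6.42% for Gm19757 and 2.88% for A430078G23Rik. Germline genes, a class known for silencing by promoter methylation, were mostly below the level tested: 6 of 34 were tested and none was called. Summed over the list, untested members included, the level was 11.5, 12.6 and 12.1 FPKM in Dnmt1 CKO. It was 11.15, 7.42 and 9.99 FPKM in Dnmt3a CKO and 6.41 to 9.22 FPKM in the controls. The sum was not tested.

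The 250 bases before the start are shown for 4 of the raised transcripts and for Xist, since CpG dinucleotides are the sites that both enzymes methylate. CpG dinucleotides are in capitals, and the median per 250 bases was 6 over all promoters of the table and 16 over the 10962 found for genes tested.
Gm11127, chr17:36058372-36058621, minus strand: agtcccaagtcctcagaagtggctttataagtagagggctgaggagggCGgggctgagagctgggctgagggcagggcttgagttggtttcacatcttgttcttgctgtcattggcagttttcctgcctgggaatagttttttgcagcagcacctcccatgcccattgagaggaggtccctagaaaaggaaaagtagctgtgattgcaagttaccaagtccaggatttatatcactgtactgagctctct
Gm4262, chr16:11008648-11008897, plus strand: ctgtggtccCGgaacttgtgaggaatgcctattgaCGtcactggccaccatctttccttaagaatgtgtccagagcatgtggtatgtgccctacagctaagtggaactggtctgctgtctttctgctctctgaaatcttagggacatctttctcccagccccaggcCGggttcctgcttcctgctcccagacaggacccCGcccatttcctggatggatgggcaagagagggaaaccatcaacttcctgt
Psg23, chr7:18616502-18616751, minus strand: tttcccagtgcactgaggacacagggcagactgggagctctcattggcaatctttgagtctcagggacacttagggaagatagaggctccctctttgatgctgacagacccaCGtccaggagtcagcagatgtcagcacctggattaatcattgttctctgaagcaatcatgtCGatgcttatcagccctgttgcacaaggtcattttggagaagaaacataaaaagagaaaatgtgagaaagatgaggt
Gm19757, chr6:105492669-105492918, minus strand: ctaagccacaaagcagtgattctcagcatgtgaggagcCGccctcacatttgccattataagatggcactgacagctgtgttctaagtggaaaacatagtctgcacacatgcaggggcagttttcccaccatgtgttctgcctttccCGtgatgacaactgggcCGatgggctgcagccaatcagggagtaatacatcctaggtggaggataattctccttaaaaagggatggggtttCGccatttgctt
Xist, chrX:103483234-103483483, minus strand: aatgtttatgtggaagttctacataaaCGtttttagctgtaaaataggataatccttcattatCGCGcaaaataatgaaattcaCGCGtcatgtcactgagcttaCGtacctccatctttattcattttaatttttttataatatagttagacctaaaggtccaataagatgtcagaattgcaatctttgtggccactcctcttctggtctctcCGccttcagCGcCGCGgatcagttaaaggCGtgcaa
Gm11127 held 1 CpG, Psg23 held 2, and Gm4262 and Gm19757 held 4 each, while Xist held 11. Uba1y, also raised, held 9. The raised transcripts were picked by their values, and promoters were found for 77.9% of the genes tested, so no comparison over the called genes was made. Methylation itself was not measured in this series.

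**Figure D5:**
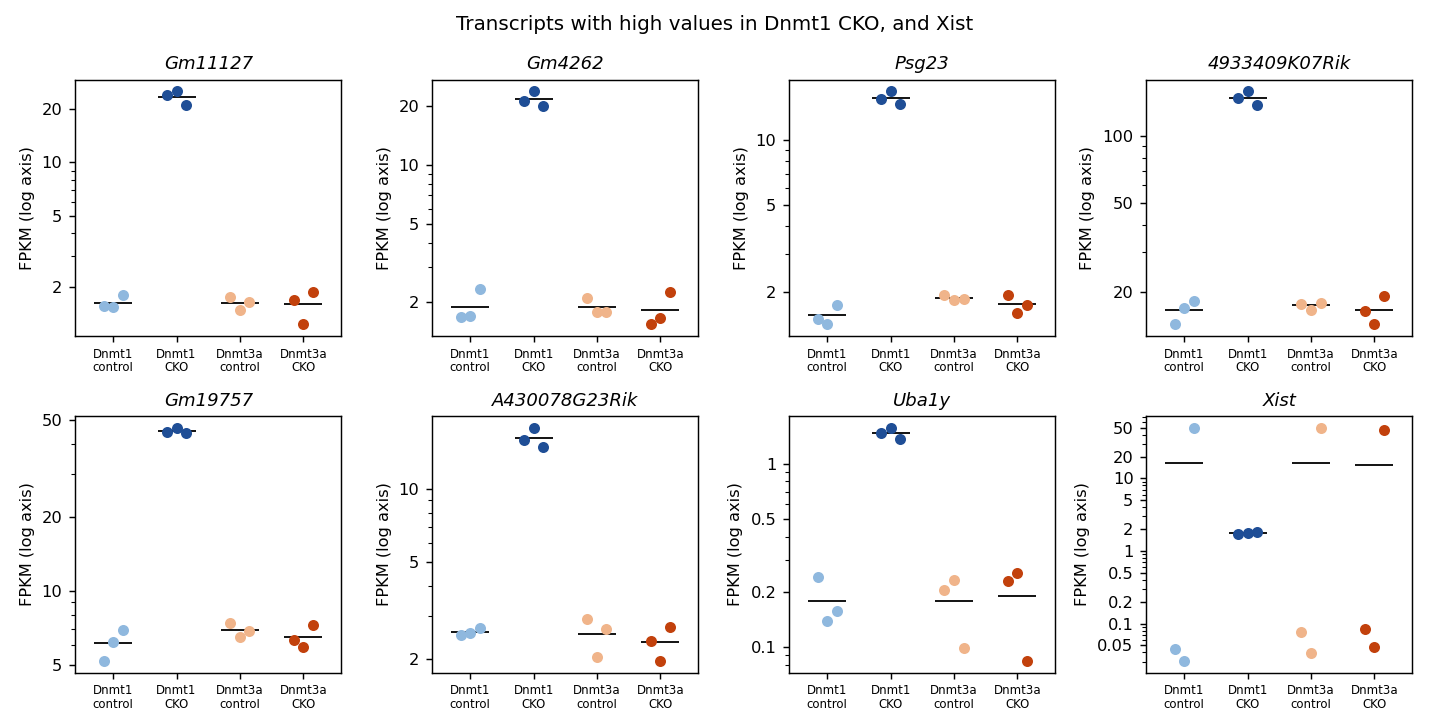
FPKM on a log axis of 8 transcripts in each library, by group (points are libraries, horizontal lines group means). The 3 Dnmt1 CKO libraries lay above the other 9 in 7 of the 8 panels, and in Xist they lay between the 6 other male libraries and the 3 female libraries.

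Of the sex-linked transcripts examined, Xist and Uba1y were also higher in Dnmt1 CKO once sex was taken into account. Xist, the RNA that coats the inactive X chromosome of females, measured 1.69, 1.80 and 1.85 FPKM in the 3 male Dnmt1 CKO libraries. In the 2 male Dnmt3a CKO libraries it measured 0.0853 and 0.0473 FPKM, and in the 4 male control libraries 0.0306 to 0.0775 FPKM, whereas the 3 female libraries had 46.2 to 49.4 FPKM. Without regard to sex it was not called (log2 difference 0.80), and between the males alone the log2 difference was 3.51. Uba1y, a Y-linked ubiquitin-activating enzyme gene, measured 1.46, 1.56 and 1.37 FPKM in Dnmt1 CKO and 0.0839 to 0.254 FPKM in the 9 other libraries, male and female. Its log2 difference was 2.49, or 2.19 among males, and with a mean of 0.182 FPKM in those 9 it was tested only because of its level in Dnmt1 CKO. The other Y-linked genes followed sex only, with log2 differences among males of -0.17 for Ddx3y, -0.13 for Eif2s3y, -0.12 for Uty and 0.09 for Kdm5d. Of the Uba1y words 47.7% also occur in other annotated genes.

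Between the lists of neuron markers, only that of interneurons had calls. None of 20 excitatory neuron markers was called (median log2 difference 0.01). Of 19 interneuron markers, 3 (15.8%) were lower in Dnmt1 CKO and called, Pvalb, Npy and Kcnc1, where 3.56% of all genes tested were. Pvalb, the calcium-binding protein of fast-spiking interneurons, measured 15.2, 15.2 and 14.1 FPKM in Dnmt1 CKO and 26.9, 25.3 and 29.8 FPKM in Dnmt3a CKO, with 16.8 to 22.2 FPKM in the controls. The knockouts thus lay on opposite sides of all 6 controls, and the log2 difference was -0.88 (limma adjusted p = 0.0026). Kcnc1, a potassium channel gene of fast-spiking cells, measured 18.2, 18.6 and 18.3 FPKM against 22.8, 22.5 and 23 FPKM. The neuropeptide gene Npy measured 102, 104 and 105 FPKM against 129, 137 and 143 FPKM. Against the own controls Npy differed by -0.05 in Dnmt1 CKO and 0.22 in Dnmt3a CKO, and Kcnc1 by -0.16 and 0.07. Gad1, which encodes a glutamate decarboxylase of all these interneurons, differed by -0.22 and was not called. Sst, the most abundant marker of the list, differed by -0.16, also without a call.

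The share of the difference that lay on the Dnmt3a CKO side was examined by placing each knockout against the 9 other libraries. Among the 704 called genes, the Dnmt1 CKO libraries lay outside the range of the other 9 in 485 (68.9%), below in 385 and above in 100, where 7.58% of all genes tested showed this. The Dnmt3a CKO libraries lay outside the other 9 in 95 (13.5%), above in 63 and below in 32, where 2.34% of all genes did. Both were outside in 32 genes and neither in 156. Since the calls rest on the same CKO libraries, these counts describe the called genes and test nothing.

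Against their own controls limma called 443 genes in Dnmt1 CKO (3.15% of those tested, 119 higher and 324 lower) and 2 in Dnmt3a CKO (0.0142%), Amd1 and the microRNA row Mir3091, the latter named after its values were seen. Dnmt3a itself was not called there, with a log2 difference of -0.78 (limma adjusted p = 0.66). Without Dnmt3a control replicate 2 its difference was -1.05 (limma adjusted p = 0.12), and 2 genes were called, of which Amd1 was not one. The numbers of calls in the 2 lines were not tested against each other. In some genes both knockouts lay outside the other libraries, on opposite sides. An example is Trf, the iron carrier transferrin that oligodendrocytes make in the brain, at 35.5, 41.0 and 39.6 FPKM in Dnmt3a CKO. It measured 13.3, 14.2 and 12.5 FPKM in Dnmt1 CKO and 24.6 to 34.1 FPKM in the controls, so that the log2 difference from the line's own controls was -0.99 in Dnmt1 CKO and 0.25 in Dnmt3a CKO. Of the 50-base words of Trf, 59.4% also occur in other annotated genes. Lpar1, a lysophosphatidic acid receptor of oligodendrocytes, measured 9.18, 10.7 and 8.95 FPKM in Dnmt3a CKO, 2.68, 3.13 and 2.81 FPKM in Dnmt1 CKO and 6.56 to 8.63 FPKM in the controls, with differences from the own controls of -1.27 in Dnmt1 CKO and 0.19 in Dnmt3a CKO. Bmp4, a signal that restrains oligodendrocyte differentiation, measured 3.58, 3.52 and 3.28 FPKM in Dnmt3a CKO and 2.02, 1.97 and 2.01 FPKM in Dnmt1 CKO, with the controls between 2.31 and 2.97 FPKM. Mid1, an X-linked ubiquitin ligase gene, was outside the other libraries in Dnmt3a CKO alone and measured 18.9, 10.8 and 10.4 FPKM in Dnmt3a CKO against 3.52 to 7.21 FPKM in the other 9 libraries, and its spread within Dnmt3a CKO was wide. Tnni1, a troponin gene, measured 2.61, 2.93 and 3.27 FPKM in Dnmt3a CKO, 0.921, 0.729 and 0.752 FPKM in Dnmt1 CKO and 1.65 to 2.33 FPKM in the controls.

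Amd1, an enzyme of polyamine synthesis, was listed at 0.000425 to 0.000502 FPKM in all libraries but the 3 of Dnmt3a CKO, where it stood at 1.91, 5.85 and 3.64 FPKM. It was tested only because of its level in Dnmt3a CKO. Because 78.1% of its 50-base words also occur in other genes, among them Amd2 and its pseudogenes, the values may reflect how reads were divided among copies, which was not tested. The 2 largest called differences of all were of microRNA gene rows, Mir5114, lower in Dnmt1 CKO, and Mir671, higher. All 50-base words of these short rows lie in the host genes Scd2 and Chpf2, and the controls ran from 0.00103 to 15833 FPKM in Mir5114 and from 0 to 124 FPKM in Mir671, so no size is given for them. In Mir671 all 3 Dnmt1 CKO libraries lay above every control.

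The control libraries showed how the 2 lines differ without cre. Between Dnmt1 and Dnmt3a controls limma called 1 gene (0.00710% of those tested), while 1089 had an unadjusted p under 0.05 and 6 were called with the robust setting. The called gene was the small nucleolar RNA Snora43, with 6.78, 3.75 and 10.5 FPKM in Dnmt1 controls and listed at 0 in all 3 Dnmt3a controls. In the CKO libraries Snora43 overlapped, with 0, 9.22 and 3.57 FPKM in Dnmt1 CKO and 3.16, 0 and 0 FPKM in Dnmt3a CKO. This contrast shares no library with that of the knockouts, but controls and knockouts were littermates.

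Of the 704 genes called between the knockouts, 535 (76.0%) had a control difference in the same direction, where 56.1% of all genes tested did. The control difference was in the same direction with an unadjusted p under 0.05 in 144 called genes (20.5%), against 5.31% of all genes, and in the opposite direction in 11 (1.56%), against 2.40% of all genes. Over all directions, 7.72% of the genes tested (1086, with a symbol of several rows read at the row used for the knockouts) had such a control p. Without Dnmt3a control replicate 2 the share with the same direction was 72.6% against 55.2%, and among male controls 69.3% against 53.8%.

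This held for myelin in particular. In the controls, 20 of the 29 myelin genes had an unadjusted p under 0.05, and the median control difference of the list was -0.29, or -0.24 without Dnmt3a control replicate 2 and -0.31 among males. The summed myelin level was 2675, 2532 and 2321 FPKM in Dnmt1 controls and 3089, 3426 and 2881 FPKM in Dnmt3a controls. The CKO difference was far larger in each of the genes named above. The difference between the CKO and the control differences, tested as an interaction over all 12 libraries, was called for 25 of the 29, and over all genes for 299 (2.12%), 41 above and 258 below 0. For Mag the CKO difference of -2.28 stood beside a control difference of -0.26, and for Opalin -2.99 beside -0.46. Without Dnmt3a control replicate 2, 25 myelin genes and 236 genes in all were called, and the control difference was -0.20 for Mag and -0.40 for Opalin. Lpl, a lipoprotein lipase gene, had a CKO difference of 0.35 beside a control difference of 0.30, or 0.20 without that library.

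The immediate early genes, which follow neuronal activity, had a median of 0.25 between the knockouts and 0.22 between the controls (0.25 without Dnmt3a control replicate 2). Of the 20, 2 had a control p under 0.05, and their summed level overlapped between the control groups. The 1 gene called between the knockouts (5.0% of the list, the same share as of all genes tested) was Btg2, an antiproliferative early-response gene. It had a CKO difference of 0.79 and a control difference of 0.25, or 0.41 without that library. Egr1, the most abundant of them, measured 48, 78.8 and 87.6 FPKM in Dnmt1 CKO and 70.1, 42.7 and 72.6 FPKM in Dnmt3a CKO, and the groups overlapped.

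Genes that neighbour the floxed loci were counted because the regions around a targeted gene can come from the strain in which it was made. Within 5 Mb of Dnmt1, 8 of 74 genes tested were called (10.8%), beside 5.0% overall. Over the whole of chromosome 9, which carries Dnmt1, 4.15% of the genes tested were called between the knockouts. On that chromosome 13.1% had a control p under 0.05, the highest share of any chromosome. Within 5 Mb of Dnmt1 this control share was 9.46%, beside 7.72% of all genes tested. Called between the knockouts were 0 of 28 genes within 5 Mb of Dnmt3a and 1 of 54 within 5 Mb of Olig1. The called neighbours of Dnmt1 did not share a pattern. S1pr5, a sphingosine phosphate receptor of oligodendrocytes, was low in Dnmt1 CKO alone, where it measured 0.568, 0.971 and 0.834 FPKM, with 3.09, 3.22 and 3.16 FPKM in Dnmt3a CKO and 2.50 to 3.67 FPKM in the controls. Zfp26, a zinc finger gene, followed the line instead, with 3.29 to 3.49 FPKM in the 6 libraries of the Dnmt1 line and 2.56 to 2.77 FPKM in the 6 of the Dnmt3a line. Anln, an actin-binding protein of dividing cells and myelin, had a CKO difference of -0.86 and a control difference of -0.44. What part the flanking regions had in these values was not tested.

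Each of the other groups had at most 4 calls. Of 56 clustered protocadherins, cell-surface adhesion genes whose promoters are chosen under DNA methylation, 4 were higher in Dnmt1 CKO and called, Pcdhga3, Pcdhga7, Pcdhgb4 and Pcdhga11 (7.14%, where 1.44% of all genes were called higher). The list's median was 0.18, and 1 to 3 of them were called with 1 library left out. Against the own controls the list's median was 0.03 in Dnmt1 CKO and -0.05 in Dnmt3a CKO. For Pcdhga11 these differences were 0.06 and -0.26. With all 12 libraries the interaction was called for 0 of the 56. Pcdhga11 measured 9.17, 8.75 and 7.92 FPKM against 5.45, 5.96 and 5.64 FPKM, a log2 difference of 0.59 beside 0.27 in the controls (0.13 without Dnmt3a control replicate 2), although 44.1% of its 50-base words lie in other genes of the cluster. Of 42 imprinted genes, 3 were called (7.14%, near the 5.0% of all genes), or 2 to 5 with 1 library left out: Mkrn3 was higher at 4.11, 4.71 and 4.55 FPKM against 3.09, 2.77 and 2.85 FPKM, and Cd81 and Gatm were lower. Mkrn3 was also higher in the Dnmt1 line among the controls, which did not overlap, with a control difference of 0.32 beside 0.60. Of 19 genes of the methylation machinery, Dnmt3a itself was the only one called.

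Among 26 p53 targets, 2 were higher (Btg2 and Cdkn1a) and 2 lower (Phlda3 and Plk3), 15.4% of the list beside 5.0% of all genes, and the count fell to 1 without Dnmt1 CKO replicate 2 or 3 or without Dnmt3a CKO replicate 2, and to 2 without Dnmt3a CKO replicate 1. Cdkn1a, an inhibitor of the cell cycle, measured 10.6, 11.4 and 10.9 FPKM against 9.31, 8.99 and 8.52 FPKM. Among 25 cell cycle genes 1 was called, the cyclin gene Ccnd1, with a log2 difference of -0.29, and its call was kept in 1 of the 6 fits with a library left out. Of 20 endothelial markers 1 was called, Itm2a, at -0.24, and its call was lost in each of those 6 fits (limma adjusted p = 0.109 to 0.232). Neither mural cell, leptomeninges, choroid plexus, ependyma nor red blood cell markers had a call, nor did markers of striatum, thalamus and hippocampus, whose summed level varied within groups, from 244 to 382 FPKM in Dnmt1 CKO and from 229 to 395 FPKM in Dnmt3a CKO. None of 26 genes of the unfolded protein response was called. At unadjusted p under 0.05, 2436 of all genes differed between the knockouts, and the limma counts above are those at 10% FDR.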

How the data were processed

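RNA was taken from cortex of 12 mice. Per the labels and the study's methods, polyA libraries were made from about 250 ng of total RNA, reads were aligned to mm10 with TopHat, and the authors used Cufflinks to obtain the deposited FPKM values per gene symbol. Versions and any scaling between libraries are not given in the sources used here.

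Of 23850 rows, 302 exact duplicates were dropped, and 14115 rows (14075 symbols) whose mean across the 12 libraries reached 0.5 FPKM were kept. Contrasts of log2(FPKM + 0.1) were fitted on the 6 libraries concerned with limma 3.58.1 (lmFit, eBayes with trend) in R 4.3.3, and the interaction on all 12. Each symbol counts once, by its row with the smallest p. The procedure was tested on simulated data. Loci came from GENCODE M21 and RefSeq (99.3% of symbols).

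Named genes were the targeted genes and the cre locus, 4 genes the paper names, the 10 largest non-overlapping called differences each way, for each list the most abundant and the most changed called members, sex-linked genes, called neighbours of the floxed loci, the 5 most abundant called genes and the largest differences on either knockout's side. That rule gave 83 genes. Isg15, Irf7, Oasl2, Ifit3, Rtp4, Trim30a, C4b, Serpina3n, Cdkn1a, Npy, Kcnc1, Gad1, Aldoc, Bmp4, Mid1, Pdgfra, Myrf, Zfp26 and Zfp846 were added after their values were seen. The members, the lists and the tests were chosen with earlier results of these data known. Some named genes are not reported here. Replicates were separate mice.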

Additional observations from a re-analysis of the deposited data

Results flagged for a closer look

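The difference between the knockouts was set against the difference between the controls of the 2 lines. It was tested with limma as an interaction over all 12 libraries. Of the named genes reported here, 39 passed 10% FDR. Many were named for a large CKO difference or after their values were seen, so this number is not a result. Over all genes tested, 299 passed (2.12%). Sox8, Nkx2-2, Ntsr2 and Gpr37l1, mentioned above only as list members, also passed and are not counted among the 39. The value given is the CKO difference minus the control difference on the log2 scale. It uses the same CKO libraries as the contrast of the knockouts and is not independent of it. Without Dnmt3a control replicate 2, whose Dnmt3a level was near that of the knockouts, 36 of the 39 were called, none changed sign, and no value moved by more than 0.22. The calls lost were those of Hmgcs1 (-0.40), Lcn2 (1.72) and Slc1a2 (-0.21). Calls gained without it were those of Dnmt3a itself (1.03), Pcdhga11 (0.46) and Serpina3n (0.82).

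Among myelin and oligodendrocyte genes the value was -2.53 for Opalin, -2.24 for Mobp, -2.15 for Mal, -2.08 for Mog, -2.02 for Mag, -2.01 for Ermn and -1.79 for Mbp. It was -1.73 for S1pr5, -1.46 for Lpar1, -1.45 for Gjb1, -1.45 for Gsn, -1.43 for Casr and -1.24 for Trf. The transcription factor genes had -1.27 for Nkx6-2, -1.22 for Myrf, -0.86 for Sox10 and -0.70 for Olig1, the locus that carries cre. Outside the 39, Nkx2-2 had -0.97 and Sox8 -0.54. Further genes on the lists of the lineage were Bmp4 (-0.87), Sirt2 (-0.76) and Neu4 (-0.44), and outside the 39 Gpr37l1 (-0.24). The cholesterol synthesis gene Hmgcs1 had -0.42, the astrocyte genes Kcnj10 and Slc1a2 -0.52 and -0.21, and Pvalb -0.70. The astrocyte gene Ntsr2, outside the 39, had -0.30. Tnni1 had -1.43. Amd1, which shares much of its sequence with annotated copies and was tested only because of its level in Dnmt3a CKO, had -5.14.

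On the side of increases, the value was 1.66 for Isg15, 1.10 for Ifi27l1 and 1.08 for Rtp4 among the interferon genes, and 1.24 for C4b and 1.81 for Lcn2 among the reactive astrocyte genes. The transcripts with the highest values were Gm11127 (3.78), Gm4262 (3.53), Psg23 (3.35), 4933409K07Rik (3.24), Gm19757 (2.97), A430078G23Rik (2.70), Uba1y (2.47) and Gm10845 (2.06). Uba1y and Lcn2 were tested only because of their level in Dnmt1 CKO.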

How the results depend on the processing

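The 704 calls between the knockouts fell to 398 with the replicate number as a block (358 of them shared with the 704) and to 450 at 5% FDR, and rose to 1097 with all 12 libraries in 1 model and to 1261 with the Xist level as a covariate, which does not stand for sex alone since Xist itself differed between the male knockouts. With 1 library left out they ranged from 333 to 722. The replicate numbers do not pair the libraries, as deviations of same-numbered CKO libraries from their group means correlated at 0.01, 0.06 and -0.12. Under the replicate block 7 of 20 interferon genes, 4 of 23 cholesterol genes and 26 of 29 myelin genes were called. The limma control contrast, with 1 call, gave 0 calls with a pseudocount of 1, with the replicate block and with all 12 libraries in 1 model (1086, 938 and 1149 genes at an unadjusted p under 0.05), 7 without a filter on low values, 6 with robust eBayes, 9 among males only (chosen after seeing the data), and 1 to 4 with 1 library left out. The interaction gave 205 to 326 calls with 1 library left out, and 299 with the block.

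Of the 70 named genes called between the knockouts, none changed sign under any alternative that tested it. With a minimum mean of 1 FPKM 9 were not tested. Of the other 61, 43 kept their call under every alternative and 47 under all that keep every library. The calls of Itm2a, Hmgcs1, Clu, Ccnd1, Slc1a2, Gfap, Btg2, Cd81, Lpl, Anln, Serpina3n, Cdkn1a, Mid1, Zfp26, Zfp846 and Aldoc were each lost without at least 1 of the Dnmt1 CKO libraries and, except that of Anln, also without at least 1 of the Dnmt3a CKO libraries (limma adjusted p = 0.102 for Aldoc without Dnmt3a CKO replicate 3 to 0.285 for Clu without Dnmt1 CKO replicate 1). Those of Ifit3, Mkrn3 and Trim30a were lost under the block. So were those of Hmgcs1, Clu, Ccnd1, Btg2, Anln, Serpina3n, Cdkn1a, Zfp26, Zfp846 and Aldoc. Ifit3 and Cdkn1a also lost theirs with all 12 libraries in 1 model and with the Xist covariate.

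Signs turned only in genes without a call. With quantile normalization Id2 had -0.019 and Nrgn 0.0036, and with a pseudocount of 1 Xist had -0.44. Among males, or equally without Dnmt3a CKO replicate 3, Ttr had -1.08, Ptgds -0.064, Eif2s3y -0.13, Ddx3y -0.17 and Uty -0.12. With 1 library left out, Ddx3y ranged from -0.17 to 3.19, Egr1 -0.044 to 0.47, Eif2s3y -0.13 to 3.63, Gnas -0.089 to 0.0067, Id2 -0.043 to 0.057, Ppp1r1b -0.41 to 0.15, Ptgds -0.064 to 0.25, Slc2a1 -0.092 to 0.0029, Ttr -1.08 to 2.74, Uty -0.12 to 2.50 and Xist -0.64 to 3.51. The cause was not tested. The window around Olig1 held 0 called genes at 2 Mb and 3 at 10 Mb. Read numbers are unknown, so what depth limits could not be computed.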
